A study of Homo sapiens with 6 samples.

Results

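The autophagy genes measured in MV4-11 leukemia cells are described here, with and without the WNK kinase inhibitor WNK463. Members were the genes whose symbol starts with ATG and a number, GABARAP or MAP1LC3, together with 20 genes listed by name that start, build or load the autophagosome. This gave 45 of the 20348 genes in the table. Of the 45 members, 43 passed the filter on low counts and were tested, among 11973 genes tested in all. *MAP1LC3B2*, with at most 5 counts in a sample, and *MAP1LC3C*, with 0 counts in every sample, were not tested.

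RNA from MV4-11 cells, a monocytic acute myeloid leukemia line that carries a KMT2A fusion and a FLT3 internal duplication, was sequenced after enrichment of mRNA. The 3 Ctrl samples were untreated MV4-11 cells, and the 3 WNK463 samples were MV4-11 cells given 1 µM WNK463 for 48 h. The comparison asks which transcripts differ after the inhibitor. Total counts per sample lay between 14915745 and 17411780. The labels do not say that the samples of a group came from separate cultures, so p-values measure only the spread between these samples, which may be technical. In bulk RNA, fewer cells of a kind and less RNA per cell cannot be told apart.

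Autophagy delivers cytoplasm, organelles and aggregates to the lysosome inside a double membrane. The ULK1 kinase complex starts the process, a class III phosphatidylinositol 3-kinase marks the growing membrane with PI3P, and lipid is carried in by ATG9 vesicles and ATG2 proteins. An enzyme cascade like that of ubiquitin then couples the ATG8 proteins (LC3 and GABARAP) to the membrane, where cargo receptors bind them. Transcript levels do not measure autophagic flux, which was not measured in these data.

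The labelled cell line was checked against its markers. All 10 of the MV4-11 markers examined were detected, and their summed level was 2268, 2327 and 2405 CPM in Ctrl and 1426, 1433 and 1444 CPM in WNK463, where CPM is counts per 1000000 on library sizes corrected by TMM. *LYZ*, the most abundant of them in Ctrl, fell from a mean of 1355 CPM to 291 CPM. In a check chosen after seeing the data, the other 9 summed to 942, 993 and 999.5 CPM in Ctrl and 1139, 1151 and 1140.4 CPM in WNK463, so the direction of the sum rested on *LYZ*. Of the 10 markers 5 rose and 4 fell. Among those that fell, *FLT3* lost its call under scaling by total counts (-0.05) and with limma on TPM (-0.01). *CD33* lost its call with limma on unfiltered TPM (-0.15). Among 10 macrophage markers, 5 rose from low levels, and their sum was 4.32, 4.12 and 3.42 CPM in Ctrl and 22.6, 23.3 and 23.2 CPM in WNK463. *C1QA* was the most abundant macrophage marker with WNK463, at a mean of 13.1 CPM, and *C1QB*, *C1QC*, *FOLR2* and *APOE* also rose. In Ctrl, *C1QB* had 0, 1 and 0 counts, *APOE* 0, 2 and 0, and *C1QC* 2, 4 and 1. These genes passed the filter on low counts only through WNK463. Neither they nor *C1QA* were tested when every sample needed at least 10 counts. *MARCO*, at means of 1.76 CPM in Ctrl and 1.45 CPM in WNK463, did not pass. The other 4 were too low to be tested, with *CD163*, *MRC1* and *MSR1* at 0 or 1 count in every sample and *VSIG4* at 3, 0 and 2 counts in Ctrl and 7, 7 and 11 counts in WNK463. The 4 T cell, 3 B cell and 4 erythroid markers each stayed under 1 CPM in all samples, as did 3 of the 4 fibroblast markers. The other, *PDGFRB*, rose from a mean of 0.602 CPM to 1.30 CPM, and did not pass in DESeq2, with limma on unfiltered TPM or without Ctrl replicate 3 or WNK463 replicate 1 or 3. Of the epithelial markers *EPCAM* and *CDH1* were at 0 counts, while the keratin gene *KRT8* rose by 0.41 on the log2 scale, from a mean of 9.41 CPM to 12.5 CPM, and *KRT18* fell by 0.68, from 10.1 CPM to 6.31 CPM. The part of these marker changes in the results on autophagy genes was not tested.

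With WNK463, 22 of the 43 tested members rose and 9 fell at an adjusted p under 0.05 in edgeR's quasi-likelihood test. Of all genes tested, 35.5% rose and 35.3% fell by the same rule. The counts given below for each role are to be read beside these shares. The median log2 fold change was 0.14 over the members and 0.02 over all genes tested. Groups did not overlap in CPM for 21 members with WNK463 above Ctrl, where 37.1% of all genes tested were so placed, and for 8 members with WNK463 below Ctrl, where the share was 36.4%. Changes of at least 2-fold were fewer, with 3 members higher beside 9.62% of all genes tested and 2 members lower beside 5.55%. Of the higher members *ATG9B* passed the filter on low counts only through WNK463. Both lower members, *ULK2* and *MAP1LC3A*, passed it only through Ctrl. None of *ATG9B*, *ULK2* and *MAP1LC3A* was tested when every sample needed at least 10 counts. *SQSTM1*, with a log2 fold change of 1.00 after rounding, fell just short of the 2-fold line. The count of members at least 2-fold higher was 5 without WNK463 replicate 2 and 1 without WNK463 replicate 3. The count at least 2-fold lower was 0 without Ctrl replicate 1 or WNK463 replicate 1, and 1 without Ctrl replicate 2, WNK463 replicate 2 or WNK463 replicate 3. When libraries were scaled by their total counts alone, the median log2 fold change of all genes moved from 0.02 to 0.17, and 29 members rose and 5 fell. The added calls were *ATG3*, *ATG13*, *ATG14*, *ATG16L1*, *AMBRA1*, *BECN1* and *GABARAP*, all higher. With limma on TPM the same genes except *GABARAP* also passed as higher, *ATG14* only with the filter. In each limma fit 27 members were higher and 2 lower.

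**Figure D1:**
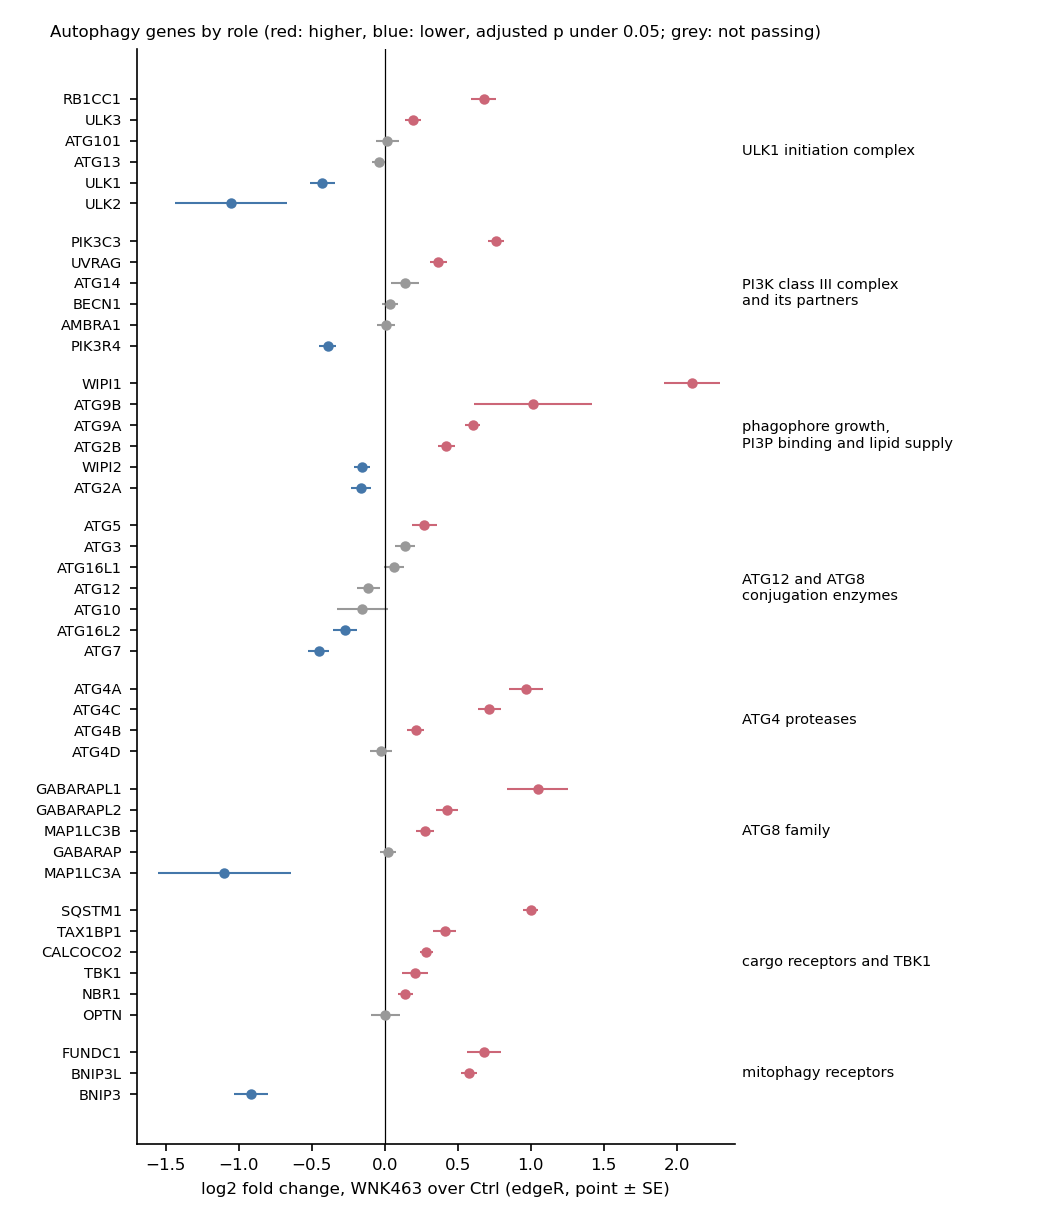
Log2 fold change of the 43 tested members (x axis, WNK463 over Ctrl, point ± SE), grouped by role, with red and blue for members that rose or fell at an adjusted p under 0.05 and grey for the others. *WIPI1* lies farthest to the right at 2.10, and the members farthest to the left, *MAP1LC3A* and *ULK2*, have wide errors and few counts.

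The ULK1 complex joins the kinases ULK1 and ULK2 with ATG13, ATG101 and the scaffold RB1CC1 (FIP200), and ULK3 is a related kinase listed with it. Of these 6 genes, 2 rose and 2 fell, with a median log2 fold change of -0.01. *RB1CC1* stood at 80.1, 101 and 113 CPM in Ctrl and 157, 161 and 152 CPM in WNK463. Every WNK463 sample lay above every Ctrl sample, and Ctrl replicate 1 was the lowest. The log2 fold change was 0.68 ± 0.08 (SE), with an adjusted p of 1.06e-06 in edgeR's quasi-likelihood test with Benjamini-Hochberg adjustment.

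*ULK1*, the kinase that receives signals from mTORC1 and AMPK, moved the other way. Its level was 32.8, 30.7 and 26.8 CPM in Ctrl and 23.0, 22.3 and 21.8 CPM in WNK463. The groups did not overlap, and the WNK463 samples lay close together. *ULK1* fell by 0.43 on the log2 scale, with an SE of 0.09 and an edgeR adjusted p of 0.000249, but did not pass with limma on TPM. *ULK2* had 22, 18 and 18 counts in Ctrl and 6, 14 and 9 counts in WNK463. All 3 WNK463 samples were below all Ctrl samples, though at counts this low each value is imprecise. *ULK2* fell by 1.05 on the log2 scale, with an SE of 0.38 and an edgeR adjusted p of 0.0211, and did not pass in DESeq2 or with limma on unfiltered TPM. It also did not pass without Ctrl replicate 1 or 2 or WNK463 replicate 1 or 3, where its log2 fold change was between -1.06 and -0.80. *ULK3* rose by 0.19, while *ATG13* (-0.04) and *ATG101* (0.02) did not pass the test.

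The class III kinase complex consists of the lipid kinase PIK3C3 (VPS34), its regulatory subunit PIK3R4 (VPS15), BECN1 and either ATG14 or UVRAG, and AMBRA1 binds BECN1. *PIK3C3* stood at 56.1, 58.2 and 56.6 CPM in Ctrl and 93.7, 97.6 and 98.4 CPM in WNK463. The samples of each group lay close together and far from the other group. *PIK3C3* rose by a log2 fold change of 0.76 ± 0.05 (SE), with an edgeR adjusted p of 8.73e-10. The gene lies at chr18:41955206-42087830 on the plus strand of GRCh38, in the GENCODE 29 annotation.

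*PIK3R4*, which encodes the partner subunit, was at 65.5, 69.4 and 70.8 CPM in Ctrl and 51.0, 54.0 and 52.0 CPM in WNK463. Here all WNK463 samples lay below all Ctrl samples, opposite to the kinase subunit. *PIK3R4* fell by 0.39 on the log2 scale, with an SE of 0.06 and an edgeR adjusted p of 1.31e-05, but did not pass with limma on TPM. *UVRAG*, whose protein also acts at late endosomes, rose by 0.37. The log2 fold changes of *BECN1* (0.04), *AMBRA1* (0.01) and *ATG14* (0.14) did not pass, although the WNK463 samples all lay above the Ctrl samples for *ATG14*.

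Among the 6 genes of phagophore growth, PI3P binding and lipid supply, 4 rose and 2 fell, with a median log2 fold change of 0.51. *WIPI1* encodes a PI3P-binding protein that gathers at the phagophore. It had the largest log2 fold change of the 43 tested members in size. *WIPI1* had 26, 28 and 29 counts in Ctrl and 127, 122 and 124 counts in WNK463, or 1.58, 1.92 and 1.77 CPM against 7.67, 7.09 and 7.92 CPM. No sample of either group came near the other group. The log2 fold change was 2.10 ± 0.19 (SE), with an edgeR adjusted p of 2.21e-08. *WIPI2*, the paralog that recruits ATG16L1, was more abundant per length, at a mean of 92.2 TPM (transcripts per 1000000) against 8.91 TPM for *WIPI1* in WNK463. Its test passed with a log2 fold change of -0.16 and groups that overlapped, and it did not pass under scaling by total counts, where the value was -0.00326, or with limma on TPM. The call of *WIPI2* was also lost without Ctrl replicate 2 (-0.15), WNK463 replicate 1 (-0.12) or WNK463 replicate 2 (-0.14).

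*WIPI1* lies at chr17:68420948-68457513 on the minus strand of GRCh38. It shares 24.3% of its exon bases with *ARSG* on the opposite strand, and the strand setting of the counting is not given in the sources used here. *ARSG* itself was at means of 8.81 CPM in Ctrl and 5.86 CPM in WNK463.

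*ATG9A*, the membrane protein of the vesicles that seed the phagophore, stood at 93.3, 93.7 and 88.4 CPM in Ctrl and 139, 139 and 139.9 CPM in WNK463. The WNK463 samples were nearly equal and all above Ctrl. *ATG9A* rose by a log2 fold change of 0.60 ± 0.05 (SE), with an edgeR adjusted p of 6.74e-09. It shares 38.8% of its exon bases with another gene on the same strand, which was at means of 0.376 CPM in Ctrl and 1.18 CPM in WNK463, and the part of such reads in its counts was not tested. *ATG9B*, the paralog, had 7, 15 and 10 counts in Ctrl and 31, 16 and 21 counts in WNK463. In CPM, WNK463 replicate 2 lay below Ctrl replicate 2, so the groups overlapped. *ATG9B* rose by a log2 fold change of 1.01 ± 0.40 (SE), with an edgeR adjusted p of 0.0325, but did not pass in DESeq2 or without the filter on low counts. It also did not pass without Ctrl replicate 1 or 3 or WNK463 replicate 1 or 3, where its log2 fold change was between 0.73 and 1.03. The lipid transfer genes split, with *ATG2B* at a log2 fold change of 0.42 and *ATG2A* at -0.16. The call of *ATG2A* was lost in DESeq2, under scaling by total counts, with at least 10 counts in every sample and with a replicate block, and with limma on TPM its sign changed. It was also lost without Ctrl replicate 1 or 2 or WNK463 replicate 2 or 3, where its log2 fold change was between -0.16 and -0.13.

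**Figure D2:**
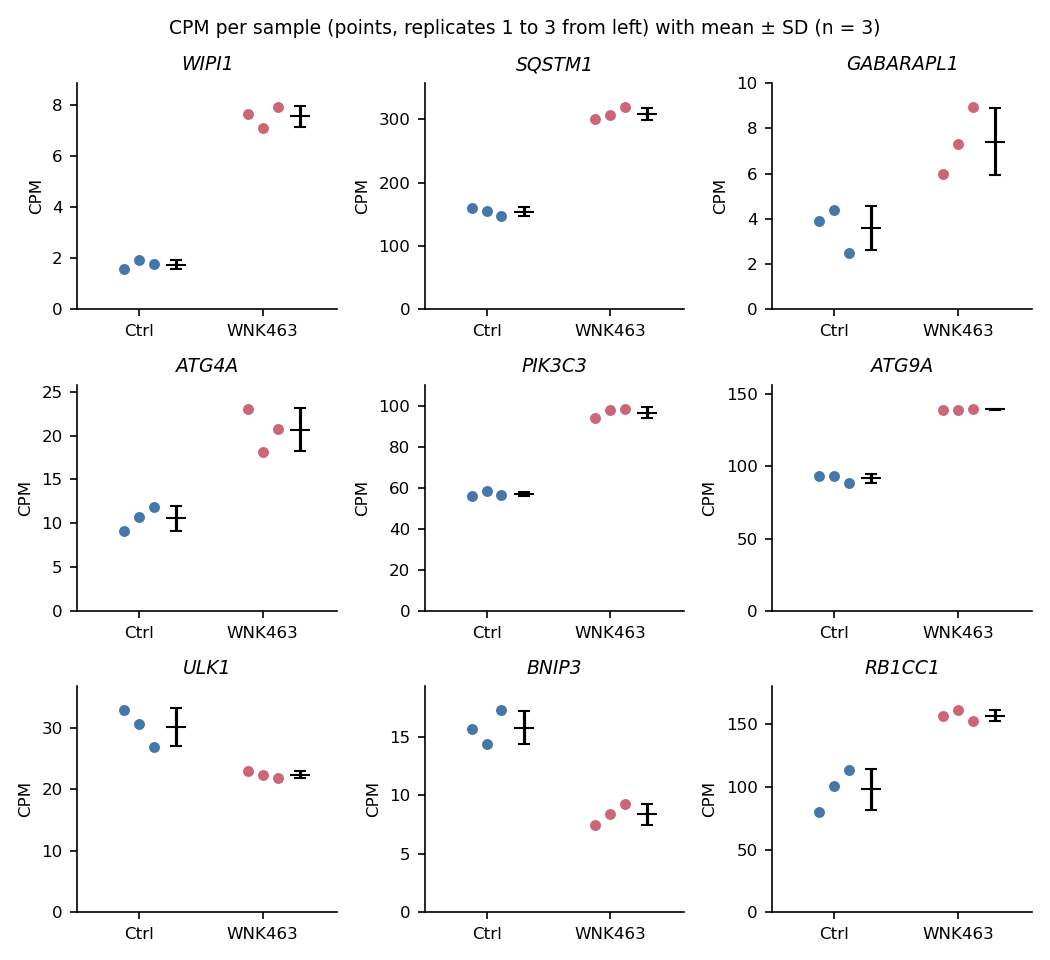
CPM (y axis) of 9 members in the 3 Ctrl and 3 WNK463 samples, as points, with the mean ± SD (n = 3) beside them. *ULK1* and *BNIP3* lie lower with WNK463, at means of 22.4 and 8.37 CPM, and the other 7 lie higher, with no overlap between groups in any of the 9.

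The conjugation enzymes are ATG7 (E1), ATG3 and ATG10 (E2), and the complex of ATG12, ATG5 and ATG16L1 that acts as an E3, with ATG16L2 as a paralog. Of these 7 genes, 1 rose and 2 fell, and the median log2 fold change was -0.11. *ATG7* stood at 59.4, 53.7 and 52.4 CPM in Ctrl and 37.6, 40.3 and 43.3 CPM in WNK463. The groups did not overlap. *ATG7* fell by 0.45 on the log2 scale, with an SE of 0.07 and an edgeR adjusted p of 1.97e-05. Its exons overlap those of *VGLL4* on the opposite strand over 18.1% of their bases, and *VGLL4* was at means of 53.9 CPM in Ctrl and 37.8 CPM in WNK463. How far reads of one gene were counted for the other was not tested.

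*ATG16L2* was at 27.4, 32.0 and 28.4 CPM in Ctrl and 24.4, 25.3 and 22.8 CPM in WNK463. All WNK463 samples were below all Ctrl samples by a small margin. *ATG16L2* fell by 0.27 on the log2 scale, with an SE of 0.08 and an edgeR adjusted p of 0.00773, but did not pass under scaling by total counts or with limma on TPM. *ATG5* rose by 0.27 and lost the call without WNK463 replicate 2, where its log2 fold change was 0.19. The other 4 genes, *ATG3*, *ATG10*, *ATG12* and *ATG16L1*, did not pass, with log2 fold changes between -0.15 and 0.14, although *ATG3* passed without Ctrl replicate 3 (0.21) or WNK463 replicate 3 (0.19). *ATG3* also passed with at least 10 counts in every sample (0.16) and in the 3 limma fits on TPM, as did *ATG16L1* in the limma fits.

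The ATG4 proteases trim the ATG8 proteins before conjugation and release them from membrane afterwards. Of 4 genes, 3 rose and 0 fell, and their median log2 fold change was 0.47. *ATG4C* stood at 19.9, 17.9 and 20.2 CPM in Ctrl and 31.5, 33.1 and 31.0 CPM in WNK463. *ATG4A* was at 9.07, 10.8 and 11.8 CPM in Ctrl and 23.1, 18.1 and 20.8 CPM in WNK463. In both genes the groups were well apart. The log2 fold changes were 0.72 ± 0.08 (SE) for *ATG4C* and 0.97 ± 0.12 for *ATG4A*, with edgeR adjusted p of 3.49e-07 and 8.97e-07. *ATG4B* rose by 0.21, and *ATG4D* (-0.03) did not pass. Its sign changed under scaling by total counts and with limma on TPM, where it passed as higher in all 3 fits, at 0.27.

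The ATG8 family comprises the LC3 proteins, classically used as a marker of autophagosomes, and the GABARAP proteins. Of the 5 tested genes, 3 rose and 1 fell. *GABARAP* stood at 180.1, 166 and 166 CPM in Ctrl and 181, 162 and 177 CPM in WNK463. Its groups overlapped, and the log2 fold change of 0.02 ± 0.06 (SE) did not pass, though it passed under scaling by total counts at 0.17. Of its exon bases 30.5% are shared with another annotated gene on the same strand, which was at means of 0.468 CPM in Ctrl and 5.02 CPM in WNK463, again with no test of its part in the counts. *GABARAPL2* (GATE-16) was at 32.6, 31.9 and 33.5 CPM in Ctrl and 41.5, 42.1 and 48.3 CPM in WNK463. All WNK463 samples lay above Ctrl, with WNK463 replicate 3 highest, and *GABARAPL2* rose by 0.43 ± 0.07 (SE) on the log2 scale with an edgeR adjusted p of 5.72e-05.

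*MAP1LC3B* (LC3B) stood at 57.2, 59.9 and 63.2 CPM in Ctrl and 71.6, 77.3 and 69.5 CPM in WNK463. The groups did not overlap, and *MAP1LC3B* rose by 0.28 ± 0.06 (SE) on the log2 scale with an edgeR adjusted p of 0.000665. *GABARAPL1* (GEC1) was at 3.90, 4.39 and 2.50 CPM in Ctrl and 5.98, 7.33 and 8.94 CPM in WNK463. Its samples were more scattered, but each WNK463 sample lay above each Ctrl sample, and *GABARAPL1* rose by 1.05 ± 0.21 (SE) with an edgeR adjusted p of 0.000231. *MAP1LC3A* had 24, 11 and 13 counts in Ctrl and 9, 4 and 10 counts in WNK463. The groups did not overlap in CPM, where it was at 1.46, 0.754 and 0.793 against 0.544, 0.233 and 0.638. *MAP1LC3A* fell by 1.10 on the log2 scale, with an SE of 0.46 and an edgeR adjusted p of 0.039, and did not pass in DESeq2, under scaling by total counts, without the filter on low counts or with limma on TPM. It also did not pass without Ctrl replicate 1 (-0.73), WNK463 replicate 1 (-1.22) or WNK463 replicate 2 (-0.77).

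Per length, the family was dominated by *GABARAP*. In TPM it stood at 387, 404 and 403 in Ctrl and 463, 403 and 416 in WNK463. *GABARAPL2* came next at 62.1, 61.6 and 64.3 TPM in Ctrl and 91.7, 94.1 and 106 TPM in WNK463, ahead of *MAP1LC3B* at 48.5, 52.2 and 54.7 TPM and 70.7, 76.6 and 67.7 TPM. *GABARAPL1* and then *MAP1LC3A* followed in every sample, far below. As a share of the family's summed TPM, *GABARAP* made up 76.8% ± 0.314 (SD, n = 3) in Ctrl and 70.4% ± 2.30 in WNK463. The share of *GABARAPL2* was 12.1% ± 0.299 in Ctrl and 16.1% ± 1.61 in WNK463, and that of *MAP1LC3B* was 9.99% ± 0.399 and 11.8% ± 1.11. The summed family TPM was 518 ± 11.9 in Ctrl and 606 ± 25.5 in WNK463. On the log2(TPM + 1) scale the median difference over all genes tested by limma was itself 0.16. The shares and the sum are a description with no test, and the groups did not overlap for the 3 genes.

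**Figure D3:**
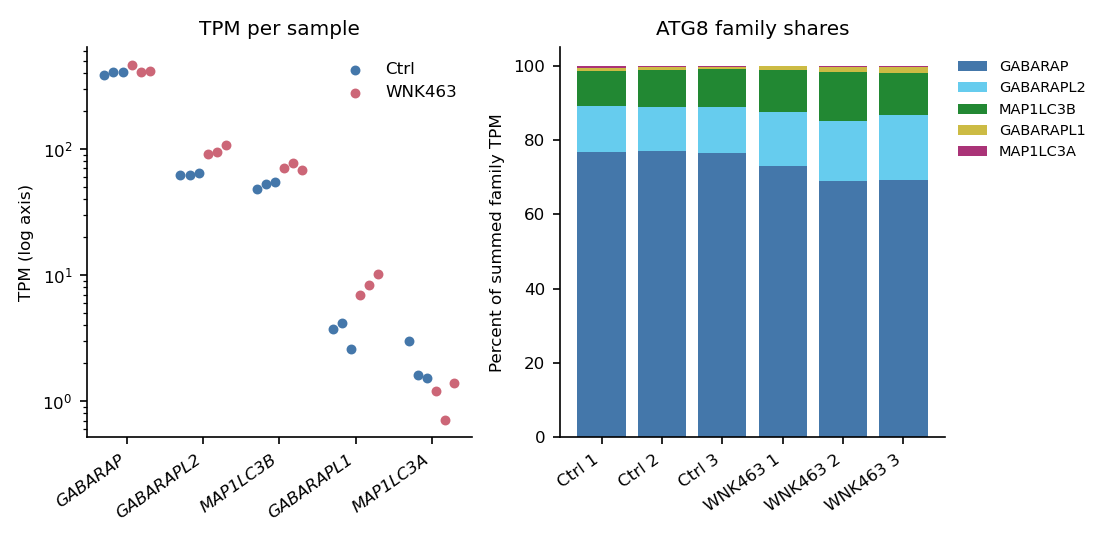
TPM of 5 ATG8-family genes per sample on a log axis (left) and their percent of the summed family TPM per sample (right). *GABARAP* held 76.6% to 77.2% of the family TPM in Ctrl and 69.1% to 73.1% in WNK463.

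Cargo receptors bind ubiquitin or other tags on one side and ATG8 proteins on the other, and the kinase TBK1 phosphorylates several of them. Of these 6 genes 5 rose and 0 fell, with a median log2 fold change of 0.25. *SQSTM1* encodes p62, the receptor for ubiquitinated aggregates, which is itself degraded by autophagy. It stood at 160.5, 155 and 147 CPM in Ctrl and 299.8, 307 and 319 CPM in WNK463. The groups were far apart, and each WNK463 sample was well above the highest Ctrl sample. *SQSTM1* rose by a log2 fold change of 1.00 ± 0.05 (SE), with an edgeR adjusted p of 6.62e-12, the smallest among the members and number 222 of the 11973 genes tested by p. It lies at chr5:179806398-179838078 on the plus strand of GRCh38, and 20.7% of its exon bases overlap *MRNIP* on the opposite strand, which was at means of 11.4 CPM in Ctrl and 14.1 CPM in WNK463.

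*CALCOCO2* (NDP52), a receptor for bacteria and damaged mitochondria, was at 239, 251 and 247 CPM in Ctrl and 301, 299.8 and 298 CPM in WNK463. The 3 WNK463 samples were nearly equal and above all Ctrl samples. *CALCOCO2* rose by a log2 fold change of 0.28 ± 0.04 (SE), with an edgeR adjusted p of 1.70e-05. *TAX1BP1* rose by 0.41 and *NBR1* by 0.14, the call of *NBR1* being lost in DESeq2, without the filter on low counts, and without Ctrl replicate 2 (0.11) or WNK463 replicate 1 (0.13). *OPTN*, the receptor tied to TBK1 in mitophagy, had a log2 fold change of 0.00 and did not pass.

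*TBK1* was singled out after its values were seen, because counts and TPM disagreed. It stood at 37.0, 44.7 and 47.0 CPM in Ctrl and 48.7, 55.6 and 44.1 CPM in WNK463, with overlapping groups. In TPM it was at 50.3, 28.6 and 60.9 in Ctrl and 36.7, 39.4 and 31.3 in WNK463. The log2 fold change on counts was 0.21, with an edgeR adjusted p of 0.049, and with limma on log2(TPM + 1) it was -0.31 and did not pass. The call on counts was lost in DESeq2 and without Ctrl replicate 1 (0.11), Ctrl replicate 2 (0.23), WNK463 replicate 1 (0.22) or WNK463 replicate 2 (0.11). The count per TPM, which follows the transcript length used by the authors' quantification, was 0.506 and 0.544 times the median gene's in Ctrl replicates 1 and 3, 1.10 times in Ctrl replicate 2, and 1.04 to 1.11 times in WNK463. Of the 43 tested members 2 varied by over 1.5-fold in this ratio, *TBK1* and *ULK2*, beside 983 of all 11973 genes tested. Which transcripts of *TBK1* were present was not analysed here.

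The mitophagy receptors BNIP3, BNIP3L (NIX) and FUNDC1 sit in the outer mitochondrial membrane and bind ATG8 proteins directly. All 3 genes passed the test, 2 rising and 1 falling. *BNIP3L* was at 73.7, 76.1 and 82.1 CPM in Ctrl and 118, 115 and 113 CPM in WNK463. *BNIP3*, its paralog, was at 15.6, 14.4 and 17.3 CPM in Ctrl and 7.43, 8.43 and 9.26 CPM in WNK463. Neither gene's groups overlapped, and the paralogs moved in opposite directions. *BNIP3L* rose by a log2 fold change of 0.58 ± 0.06 (SE), with an edgeR adjusted p of 4.16e-08. *BNIP3* fell by 0.92 on the log2 scale, with an SE of 0.12 and an edgeR adjusted p of 1.98e-06. Processed pseudogenes of *BNIP3* are numerous in the annotation, so its count is uncertain where reads match both. *FUNDC1* rose by a log2 fold change of 0.68.

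Promoters from RefSeq (GRCh38.p14, 250 bases before to 50 bases after the gene start) were found for 40 of the 45 members. The E-box CACGTG, which is its own reverse complement, was in 5 of the 40, those of *ATG3*, *ATG14*, *BNIP3*, *TBK1* and *ULK3*, in 7.43% of all 27305 promoters and in 10.3% of the 9647 promoters of tested genes. Its extension TCACGTGA, the core of the CLEAR element bound by TFEB, was in 1 of the 40, that of *ATG3*, in 1.04% of all and in 2.05% of those of tested genes. The FOXO motif GTAAACA was in 1 (*CALCOCO2*), in 3.41% of all and in 2.26% of those of tested genes. The ATF4 motif TTGCATCA was in 0 of the 40, in 0.923% of all and in 0.508% of those of tested genes. The CRE TGACGTCA was in 1 (*GABARAPL1*), in 1.98% of all and in 3.23% of those of tested genes. Both strands were searched, and TCACGTGA contains the E-box. The GC box GGGCGG, bound by Sp1-type factors, was in 25 of the 40 (62.5%), in 44.6% of all and in 70.1% of those of tested genes. *WIPI1* held 10 copies, and 0.223% of all promoters held as many or more.

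Stretches of 80 bases from the window before the gene start are shown for the member with the largest change, and for members with a changed transcript and a match to a motif other than the GC box, where the stretch overlaps no annotated exon. The motif named for each is in capitals. The *WIPI1* stretch starts 100 bases before the gene start, and the other 2, which were placed around their motif, start 174 bases (*BNIP3*) and 250 bases (*CALCOCO2*) before it. The stretches are *WIPI1* at chr17:68457517-68457596 (minus strand, GC boxes), *BNIP3* at chr10:131982018-131982097 (minus strand, E-box) and *CALCOCO2* at chr17:48830785-48830864 (plus strand, FOXO motif), all on GRCh38.p14. GC boxes are marked in the *WIPI1* stretch only.
WIPI1: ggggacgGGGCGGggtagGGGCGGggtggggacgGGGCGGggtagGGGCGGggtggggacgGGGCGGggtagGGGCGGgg
BNIP3: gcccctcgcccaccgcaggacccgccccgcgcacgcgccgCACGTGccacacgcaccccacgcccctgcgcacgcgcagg
CALCOCO2: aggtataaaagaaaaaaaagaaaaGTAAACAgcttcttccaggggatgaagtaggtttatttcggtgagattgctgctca
The *WIPI1* stretch is a tandem repeat that carries 6 GC boxes on the strand shown. A match describes the letters in the window and does not show that a factor binds there.

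Transcription factors that act on autophagy genes were mostly higher with WNK463. Of 10 genes 9 rose and 0 fell, where 35.5% of all genes tested rose, with a median log2 fold change of 0.58. The 9 include *FOXO1*, which passed the filter on low counts only through WNK463. In other settings 7 to 9 were higher and 0 lower. The MiT/TFE factors all rose in the main fit, by log2 fold changes of 0.33 for *TFEB*, 0.48 for *TFE3*, 0.60 for *MITF* and 0.56 for *TFEC*. *MITF*, at means of 2.13 CPM in Ctrl and 3.22 CPM in WNK463, had an edgeR adjusted p of 0.0371. It lost its call in DESeq2, with a replicate block, in the 3 limma fits on TPM and in 5 of the 6 fits that left out a sample, and *TFEB* lost its call without Ctrl replicate 2 (0.19). Among the FOXO factors, *FOXO3* rose by 0.60 and *FOXO4* by 0.72, while *FOXO1* rose by 1.94 from a mean of 0.356 CPM to 1.39 CPM and was too low to be tested with at least 10 counts per sample or with limma on filtered TPM. The stress factors *ATF4* and *DDIT3* rose by 0.17 and 0.72. *ZKSCAN3*, a repressor of autophagy genes, had a log2 fold change of -0.19 that did not pass.

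Upstream of ULK1, 7 of 20 tested mTORC1, Rag and TSC genes rose and 7 fell, or 35% each way beside 35.5% and 35.3% of all genes tested, with a median log2 fold change of 0.04. The balance depended on scaling, with 10 higher and 3 lower under total-count scaling and 7 or 8 higher and 2 lower in the limma fits on TPM. The largest changes were those of *FNIP1*, a folliculin partner (0.64), the GTPase gene *RRAGC* (0.56) and *DEPTOR*, an inhibitor of mTOR (0.52). Named after their values were seen, *MTOR* itself fell by 0.51, and *RPTOR* and *MLST8*, for partners in mTORC1, fell by 0.50 and 0.37. *MLST8* lost its call in the limma fits. The mTORC1 genes did not move together, as *DEPTOR* rose and *AKT1S1* (0.04) did not pass. Of 8 tested genes for AMPK subunits, LKB1 and its partners STRADA and CAB39, 4 rose and 1 fell, beside the same shares of all genes. The largest changes were those of *PRKAB2* (0.45), *PRKAA1* (0.44) and *CAB39* (0.41), and the median was 0.24. Under total-count scaling 7 were higher and 0 lower. The 1 gene that fell, *STK11* (-0.13), lost its call there, with a replicate block, when every sample needed at least 10 counts, in the limma fits and in 4 of the 6 fits that left out a sample. A list of other genes, mainly but not only of phagophore biogenesis, gave 8 rising and 3 falling of 14, with a median of 0.19. These counts again stand beside 35.5% and 35.3% of all genes tested. *C9orf72*, part of a complex that acts on Rab GTPases, rose by 1.21, *SH3GLB1* (Bif-1), a partner of UVRAG, rose by 0.70, and *FYCO1*, which links autophagosomes to kinesin, fell by 0.84.

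Downstream, of 15 genes for fusion of autophagosomes with lysosomes, 3 rose and 8 fell, with a median log2 fold change of -0.17. Of all genes tested, 35.5% rose and 35.3% fell. The HOPS tether subunit gene *VPS39* fell by 0.45, while *VPS41* of the same tether and the SNARE gene *STX7* rose by 0.41 and 0.42. Under scaling by total counts this list gave 6 rising and 4 falling, and in each limma fit on TPM 5 rising and 3 falling. Its direction thus depended on the setting. Among 14 lysosome genes with CLEAR elements, 8 rose and 1 fell, beside the same shares of all genes tested. The median was 0.27, and *CTSD* (1.79) and *ATP6V1H* (0.72) were among those that rose.

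Receptors for other selective routes gave 8 rising and 1 falling of 12 tested, beside 35.5% and 35.3% of all genes tested. Their median log2 fold change was 0.29. The 1 that fell, *WDFY3* (-0.15), lost its call in DESeq2, under total-count scaling and in the limma fits. It also lost the call without Ctrl replicate 2 or WNK463 replicate 1 or 2. The ER-phagy receptor *CCPG1* rose by 1.01, *CALCOCO1* by 0.74 and *SEC62* by 0.39. Other mitophagy genes gave 1 rising and 6 falling of 10 tested, beside the same shares of all genes, with a median of -0.23. The mitochondrial genes *FUNDC2* and *PGAM5* fell by 1.14 and 0.87 on the log2 scale, and *FKBP8*, a mitochondrial receptor, fell by 0.46.

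**Figure D4:**
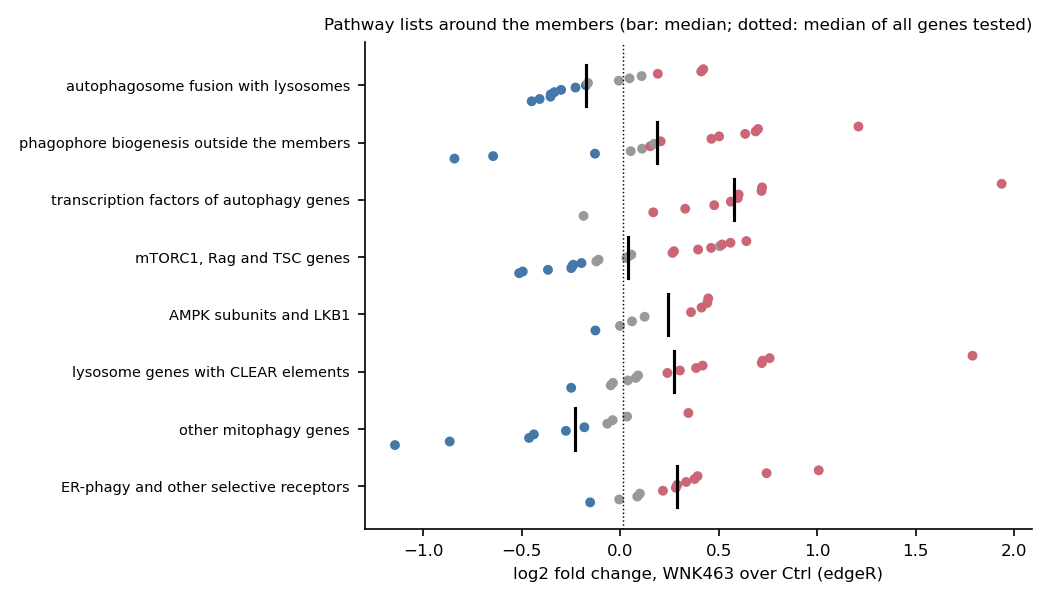
Log2 fold change (x axis, WNK463 over Ctrl) of each tested gene in 8 pathway lists, with red and blue for genes that rose or fell at an adjusted p under 0.05, grey for the others, a bar at each list's median and a dotted line at the median of all genes tested (0.02). The transcription factor list has the highest median at 0.58, and other mitophagy genes the lowest at -0.23.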

How the data were processed

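The authors deposited 1 table with estimated counts per gene and sample, given as whole numbers, and TPM values, which sum to 1000000 per sample. The submitters' processing notes name fastp, Bowtie2, HISAT2, StringTie, RSEM, DESeq2, edgeR and GRCh38, without versions. The table's columns of group means and of the authors' own comparison (log2 fold change, p-value and FDR) were not used.

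Counts were tested with edgeR 4.0.16 in R 4.3.3 (TMM factors, filterByExpr, quasi-likelihood test, no replicate block), with Benjamini-Hochberg adjustment over all 11973 genes tested. SE was obtained from the fold change and the root of its F statistic. Members and lists were chosen with earlier results of these data known, and motifs after the fit. Sample values are given for ATG8-family genes, for members changed at least 2-fold at adjusted p under 0.05, and for up to 2 members per role with the smallest p. Up to 3 genes per pathway list are named, by size of change among those that passed, and the transcription factor list is named whole. Further mTORC1 genes, and some genes whose calls were lost in other settings, are named in addition, after their values were seen. The value of 1 lysosome gene is not reported here. Gene positions are from GENCODE 29.

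Alternatives were DESeq2 1.42.0, DESeq2 size factors in edgeR, total-count scaling, no filter, at least 10 counts in every sample, a replicate block, limma 3.58.1 on log2(TPM + 1) and log2(TPM + 0.1), and each sample left out. The procedure was tested on simulated data, with 100 genes changed by 1 and 100 by 0.5 on the log2 scale. In that test edgeR recovered 99 and 95 of them, with 12 false calls among 11951 genes tested. Far fewer genes changed there than were called in these data, so it does not test the choice of scaling.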

Additional observations from a re-analysis of the deposited data

How the results depend on the processing

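With DESeq2 size factors in edgeR, all 43 members kept their direction and their side of the threshold. Where calls or directions moved as below, the cause was not tested, beyond the shift that total-count scaling itself brings. Under that scaling 63.89% of all called genes were higher, against 50.17% with TMM, and limma on TPM also gave more calls that were higher, at 65.2% with log2(TPM + 1), 65.16% with log2(TPM + 0.1) and 66.97% with no filter. Members lower numbered 9 with TMM, 5 under total-count scaling and 2 in each of the 3 limma fits on TPM. Members at least 2-fold higher numbered 3, and 5 under total-count scaling, with a range of 1 to 5 when a sample was left out. Members at least 2-fold lower numbered 2, and 0 in DESeq2, in the 3 limma fits, when every sample needed at least 10 counts and under total-count scaling, 1 with no filter on low counts, and 0 to 2 when a sample was left out.

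Fusion genes were 3 higher and 8 lower, against 6 and 4 under total-count scaling and 5 and 3 in each limma fit. Lower mTORC1, Rag and TSC genes were 7, against 3 under total-count scaling and 2 in each limma fit. Higher ones were 7, against 10 under total-count scaling. AMPK and LKB1 genes were 4 higher and 1 lower, against 7 and 0 under total-count scaling, with 0 lower also with at least 10 counts, with a replicate block and in the limma fits, and 0 to 1 lower when a sample was left out. Higher transcription factors were 9, against 8 in DESeq2, with at least 10 counts, with a replicate block and in limma with no filter, 7 in the filtered limma fits, and 7 to 9 when a sample was left out. Lower lysosome genes were 1, against 0 under total-count scaling and in the limma fits. Higher other mitophagy genes were 1, against 2 in DESeq2 and in both fits with no filter (edgeR and limma). Lower receptors of other routes were 1, against 0 in DESeq2, under total-count scaling and in the limma fits, and 0 to 1 when a sample was left out.

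Signs changed for members that had not passed with TMM in edgeR, and for *ATG2A* and *TBK1*, which had. Under total-count scaling *ATG13* was at 0.11, *ATG12* at 0.041 and *ATG4D* at 0.12. With limma on log2(TPM + 1), with or without a filter, *ATG13* was at 0.19, *ATG2A* at 0.046, *ATG12* at 0.010, *ATG4D* at 0.27 and *TBK1* at -0.31, and with log2(TPM + 0.1) they were at 0.19, 0.049, 0.011, 0.27 and -0.32. Of these *ATG13* passed as higher under total-count scaling and in the 3 limma fits, and *ATG4D* in the 3 limma fits. In DESeq2 *AMBRA1* was at -0.00076 and *OPTN* at -0.0075, and with no filter on low counts they were at -0.0056 and -0.011. Leaving out a sample gave ranges of -0.055 to 0.087 for *ATG101*, -0.032 to 0.038 for *AMBRA1*, -0.26 to 0.0091 for *ATG10*, -0.064 to 0.0030 for *ATG4D*, -0.013 to 0.070 for *GABARAP* and -0.065 to 0.063 for *OPTN*.

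Replicate numbers shared between groups showed no pairing, with correlations of deviations across genes of 0.012, 0.027 and -0.068, and not every sample correlated best with its own number. With a replicate block 22 members were higher and 8 lower, *ATG2A* lost its call and *OPTN* was at -0.00074. Over all genes 4223 were higher and 4175 lower with the block, against 4251 and 4222 without it. The *GABARAP* share of family TPM, in a check chosen after seeing the data, differed from Ctrl by -7.71 to -5.71 percentage points with each sample left out. *ULK2*, *ATG9B* and *MAP1LC3A* rest on 31 counts or fewer per sample, which limits their precision.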
